A study of Mus musculus with 6 samples.

Results

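Ubiquitin-conjugating enzymes, or E2s, are the middle step of the cascade that tags proteins with ubiquitin. An E1 enzyme activates ubiquitin, the E2 takes it over on a catalytic cysteine, and an E3 ligase brings the loaded E2 to the substrate. The choice of E2 helps to set which kind of chain is built, and some E2s carry a relative of ubiquitin, such as NEDD8 or ISG15, instead. Protein turnover through this cascade accompanies the passage from egg to embryo, and it is also the route by which Trim-away removes its target, since TRIM21 is itself an E3 ligase. The genes described here were chosen by name: protein-coding genes of the deposited table whose symbol starts with Ube2, leaving out Ube2n, Ube2v1, Ube2v2 and Ube2w. The rule found 30 of 25731 genes. One of them, Ube2cbp, is not an E2 gene: it encodes a protein that binds UBE2C and acts as an E3 ligase, and it was kept because the rule goes by symbol.

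Total RNA was extracted from pools of 13 wild-type mouse zygotes (B6C3F1 x CD1), 3 pools in each of 2 groups. According to the paper, sequencing libraries were made from it with a NEBNext Single Cell/Low Input kit. Which RNAs the kit captures is not stated there, so the values need not represent all RNA of a gene. ZP3 Trim-away zygotes received anti-ZP3 antibody at 1 mg/mL together with 0.2 mg/mL of mCherry-Trim21 mRNA and, at 0.02 mg/mL, Oregon green dextran beads. No Trim zygotes received the same mRNA and beads with antibody buffer in place of the antibody. Injection was at 15 h after hCG, and RNA was taken 10 h later, at the pronuclear stage. Both groups therefore carry injected Trim21 mRNA, and no uninjected zygotes are part of the comparison. The unit is RPKM, a read count scaled to exon length and to the size of the library.

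Library totals, recovered from the RPKM values, were 15291002 to 15746635 reads in ZP3 Trim-away and 17378252 to 20005724 reads in no Trim. More genes were nevertheless above 0 in ZP3 Trim-away (18794 to 20316) than in no Trim (13202 to 14501). Trim21 took 9.12% to 10.99% of reads in ZP3 Trim-away and 14.61% to 18.09% in no Trim. Zp3 mRNA, whose protein the antibody targets, stood at 46.5 to 58.9 RPKM in ZP3 Trim-away and at 31.3 to 55.6 RPKM in no Trim, which does not measure the protein. All 10 oocyte and zygote markers examined were above 1 RPKM on average, with a summed level of 9409 to 11128 RPKM in ZP3 Trim-away and 7025 to 8623 RPKM in no Trim. Of 16 cumulus and granulosa cell markers, 13 were in the table and their summed level was 15.6 to 27.7 RPKM in ZP3 Trim-away and 0.68 to 12.1 RPKM in no Trim. Among them Inha, Cyp11a1, Fshr, Foxl2 and Vim were at 0 in every no Trim library, and Col1a1 was at 0 in every ZP3 Trim-away library. In ZP3 Trim-away, Fshr and Foxl2 were above 0 only in replicate 2 (0.35 and 0.02 RPKM), and Vim did not exceed 0.33 RPKM. Inha was higher there, at 2.3, 2.8 and 7.5 RPKM. Tnfaip6 stood at 3.6, 7.0 and 6.9 RPKM in ZP3 Trim-away and at 0, 0 and 1.7 RPKM in no Trim. Sparc stood at 2.7, 3.4 and 3.3 RPKM in ZP3 Trim-away and at 1.5, 0 and 0.56 RPKM in no Trim. Star overlapped, at 3.6, 8.4 and 1.1 RPKM in ZP3 Trim-away and 3.0, 0 and 1.3 RPKM in no Trim. Inhba, Cd44 and Ptgs2 were highest in no Trim replicate 1, at 5.43, 0.35 and 1.78 RPKM. The part of these differences in the results below was not tested. In pooled embryos, a change in the RNA content of an embryo and a change in the share of a transcript cannot be told apart. Control replicates 2 and 3 were separated from replicate 1 before use, as the processing notes describe.

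A gene was tested where its mean over the 6 libraries reached 1 RPKM, which 21 of the 30 genes did. Of these, 1 differed between the groups: Ube2t, the E2 of the Fanconi anaemia pathway, was 2.0-fold higher in ZP3 Trim-away. The test was that of limma on log2(RPKM + 1), two-sided, and p-values were adjusted by the Benjamini-Hochberg method across the 9965 genes of the table that reached the same level, with 0.05 as the threshold. That is 4.76% of the E2 genes tested, against 0.632% of all genes tested (0.592% higher and 0.0401% lower in ZP3 Trim-away), and with 1 gene the share says nothing particular about the family. No E2 gene fell in this fit (0 of 21). An unadjusted p under 0.05 was found for 5 E2 genes (23.8%, against 19.5% of all genes tested), all with positive log2 fold changes. The E2 genes with the next clearest separation were Ube2a and Ube2b, which encode the RAD6 enzymes, and Ube2c, the E2 of the anaphase-promoting complex. Their libraries did not overlap between the groups, but none of them passed the test.

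**Figure D1:**
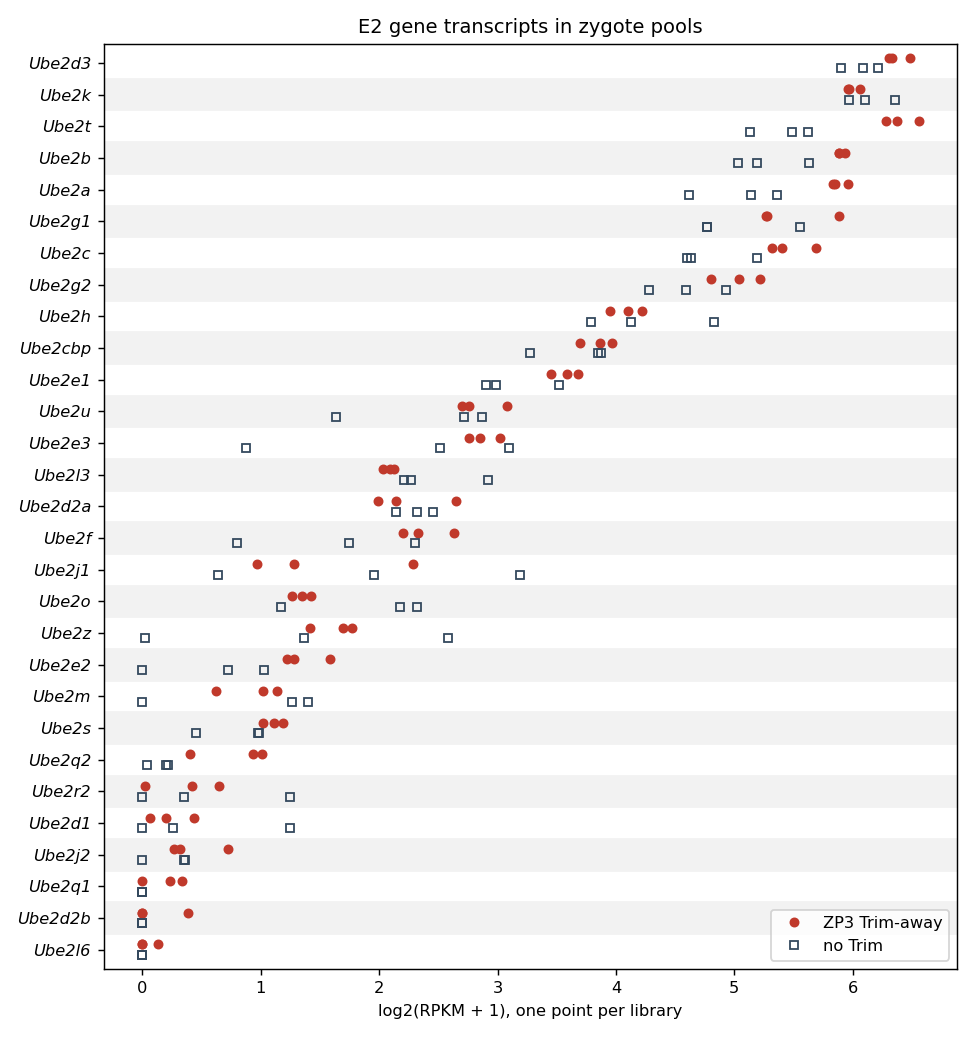
Levels of 29 E2 genes, on the log2(RPKM + 1) scale, with 1 point per library; filled circles are ZP3 Trim-away libraries, open squares no Trim libraries, and genes are ordered by their mean over the 6 libraries. Ube2d3, Ube2k and Ube2t, each with a mean above 50 RPKM, are at the top, and 9 genes with a mean under 1 RPKM are at the bottom.

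The catalytic cysteine of most E2s lies a few residues after a conserved run of histidine, proline and asparagine. In the annotated coding sequences this run was found in 20 of the 30 genes, and in 17 of them a cysteine codon followed 8 codons after the asparagine. Among the 10 genes without it were Ube2e1, Ube2e2 and Ube2e3, Ube2j1 and Ube2j2, and Ube2cbp. The stretch around the cysteine codon is shown for the 4 genes that separated most clearly and for Ube2k, an abundant gene that did not separate, because it is the part of the message that codes for the site where ubiquitin is held. Each line gives 60 coding bases, 5′ to 3′, from the principal transcript in GENCODE M21 on GRCm38, with the cysteine codon in capitals.
Ube2t: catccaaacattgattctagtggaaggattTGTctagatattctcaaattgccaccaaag
Ube2a: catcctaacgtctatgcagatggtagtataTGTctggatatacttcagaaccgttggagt
Ube2b: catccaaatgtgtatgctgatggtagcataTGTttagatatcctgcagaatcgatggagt
Ube2c: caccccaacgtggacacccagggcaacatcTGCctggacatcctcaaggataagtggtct
Ube2k: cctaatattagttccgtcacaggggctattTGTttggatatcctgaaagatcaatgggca
The cysteine is codon 86 in Ube2t (chromosome 1), 88 in Ube2a (chromosome X) and in Ube2b (chromosome 11), 114 in Ube2c (chromosome 2) and 92 in Ube2k (chromosome 5). The windows of Ube2a and Ube2b are the closest relatives of the set, with 49 of 60 bases the same.

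Ube2t (ENSMUSG00000026429) acts with the ligase FANCL to attach ubiquitin to the FANCI and FANCD2 proteins during the repair of DNA crosslinks. Its level was 76.7, 93.1 and 81.8 RPKM in the ZP3 Trim-away libraries, against 34.0, 48.2 and 43.8 RPKM in the no Trim libraries. Every ZP3 Trim-away library was thus above every no Trim library, with a gap between 76.7 and 48.2 RPKM. The means were 83.9 ± 8.41 RPKM in ZP3 Trim-away and 42.0 ± 7.25 RPKM in no Trim (SD, n = 3 each), and Ube2t rose by 0.99 ± 0.16 on the log2 scale (SE; limma adjusted p = 0.0392). The values rest on 5838, 7080 and 6049 reads in ZP3 Trim-away and on 3056, 4664 and 3679 reads in no Trim. The call is close to its threshold. It held in 4 of 15 other settings, with a positive log2 fold change between 0.79 and 1.12 in all 15, and the adjusted p ran from 0.000515 to 0.273. The values 1.12 and 0.000515 both came from the control columns as deposited, in which replicates share values and 37.3% of all genes passed. Apart from that setting, the lowest limma adjusted p was 0.0169, with genes averaging 10 RPKM or more, where 10.6% of all genes passed. It was lost when any of the ZP3 Trim-away libraries was left out (0.191, 0.273 and 0.215 without replicate 1, 2 and 3) and without no Trim replicate 3 (0.0529). Without any 1 of the ZP3 Trim-away libraries, 0.0% of all genes passed, so the loss was not particular to Ube2t. Its log2 fold change there was 1.052, 0.913 and 1.006. The call was also lost with a pseudocount of 0.1 (0.0614), with each of 3 other scalings (0.069 to 0.0745) and with the exon length trend removed (0.0817). The same held without the filter on low values (0.173), where again 0.0% of all genes passed.

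**Figure D2:**
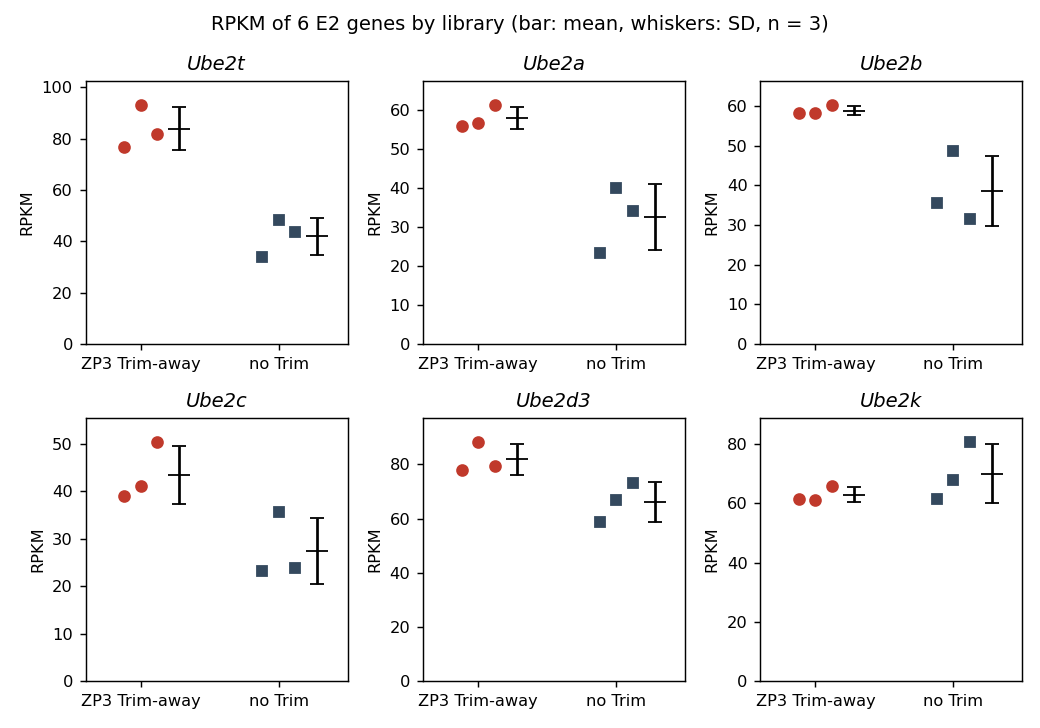
RPKM of 6 E2 genes in each library, replicates 1 to 3 from left to right within a group, with the mean (bar) and SD (whiskers, n = 3) beside the points. The groups do not overlap for Ube2t, Ube2a, Ube2b, Ube2c and Ube2d3, and they overlap for Ube2k.

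Ube2a and Ube2b are the mouse counterparts of yeast RAD6. They attach ubiquitin to the replication clamp PCNA with RAD18 and to histone H2B with RNF20 and RNF40, and loss of Ube2a in mouse mothers is known to block their embryos in early cleavage. Ube2a (ENSMUSG00000016308) stood at 56.0, 56.7 and 61.3 RPKM in ZP3 Trim-away and at 23.5, 40.0 and 34.2 RPKM in no Trim. Ube2b (ENSMUSG00000020390) stood at 58.1, 58.1 and 60.2 RPKM in ZP3 Trim-away and at 35.4, 48.5 and 31.6 RPKM in no Trim. In both genes the 3 ZP3 Trim-away pools lay close together and above the whole range of the no Trim pools, which spread more widely. The mean fold was 1.78 for Ube2a (log2 fold change 0.84 ± 0.20 SE, limma adjusted p = 0.073) and 1.53 for Ube2b (0.62 ± 0.17, adjusted p = 0.107), and neither passed. The summed level of the pair was 117 ± 4.09 RPKM in ZP3 Trim-away and 71.1 ± 15.5 RPKM in no Trim. When only genes averaging 10 RPKM or more were tested, Ube2a passed (adjusted p = 0.0349), as did 10.6% of all genes. Both genes passed without no Trim replicate 2 (0.0441 for Ube2a and 0.0396 for Ube2b, where 3.0% of all genes passed), the control library in which both were highest.

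The messages of this pair differ enough to be counted apart. Their coding sequences have 456 bases each without the stop codon, 354 of them the same (77.6%), while 145 of 152 codons specify the same residue. The longest run of identical coding bases was 17, against a read length of 72 bases, and no 72-base word of either gene's annotated transcripts occurred in a transcript of another gene. Reads of the 2 genes can be told apart wherever they fall in the transcripts annotated in GENCODE M21. For Ube2a, the exon length of that annotation did not give whole reads, so the gene model behind its deposited values may differ.

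Ube2c and Ube2s serve the anaphase-promoting complex, the ligase that ends mitosis and meiosis. UBE2C places the first ubiquitins on a substrate and UBE2S lengthens the chain. Ube2c (ENSMUSG00000001403) stood at 39.0, 41.2 and 50.5 RPKM in ZP3 Trim-away and at 23.2, 35.6 and 23.8 RPKM in no Trim. The groups did not overlap, although no Trim replicate 2 came close to the lowest ZP3 Trim-away library. The means of 43.6 ± 6.12 RPKM in ZP3 Trim-away and 27.5 ± 6.98 RPKM in no Trim gave a log2 fold change of 0.66 ± 0.20, which did not pass (limma adjusted p = 0.131), and which passed without no Trim replicate 2 (0.0493). Of the 72-base words of Ube2c, 10.6% were shared, nearly all with Tnnc2, which overlaps its end on the other strand. Ube2s was far lower, at 1.03, 1.16 and 1.27 RPKM in ZP3 Trim-away and 0.97, 0.96 and 0.37 RPKM in no Trim. Its libraries did not overlap either, but its mean of 0.96 RPKM kept it out of the test. Ube2cbp, the gene for the UBE2C-binding ligase, stood at 13.4 ± 1.37 RPKM in ZP3 Trim-away and 11.9 ± 2.83 RPKM in no Trim. The groups overlapped, and the means differed by less than the SD of the no Trim libraries.

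The UBE2D and UBE2E enzymes work with many ligases. Ube2d3 (ENSMUSG00000078578) had the highest mean RPKM of the 30 genes, with 78.0, 88.4 and 79.3 RPKM in ZP3 Trim-away and 58.6, 66.8 and 73.0 RPKM in no Trim. All ZP3 Trim-away libraries were higher, but the fold was small at 1.24 (log2 fold change 0.31 ± 0.13, limma adjusted p = 0.249), near the median of 0.22 for all genes. The other UBE2D genes were much lower on the same per-length scale. Ube2d2a stood at 5.29, 3.41 and 2.98 RPKM in ZP3 Trim-away and at 4.48, 3.99 and 3.41 RPKM in no Trim, with near-equal means. Ube2d1 stood at 0.35, 0.15 and 0.045 RPKM in ZP3 Trim-away and at 1.37, 0 and 0.20 RPKM in no Trim. Ube2d2b was above 0 in 1 library, at 0.30 RPKM in ZP3 Trim-away replicate 1. Ube2d3 thus made up nearly the whole of the UBE2D signal, whose sum was 86.1 ± 5.18 RPKM in ZP3 Trim-away and 70.6 ± 6.09 RPKM in no Trim.

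Among the UBE2E genes, Ube2e1 was the most abundant, at 9.96, 11.01 and 11.8 RPKM in ZP3 Trim-away and 6.92, 10.4 and 6.49 RPKM in no Trim, and the groups overlapped (log2 fold change 0.44 ± 0.24, limma adjusted p = 0.36). Of its 72-base words 14.6% also occurred in Nkiras1, which overlaps it on the other strand. Ube2e3 stood at 6.22, 7.10 and 5.78 RPKM in ZP3 Trim-away and at 0.83, 4.71 and 7.54 RPKM in no Trim. Its no Trim libraries held 68, 414 and 575 reads, a spread well beyond counting error, and its log2 fold change of 0.72 ± 0.52 did not pass (adjusted p = 0.483). Ube2e2, the lowest of the tested genes, stood at 1.99, 1.43 and 1.33 RPKM in ZP3 Trim-away and at 0, 1.04 and 0.65 RPKM in no Trim. The groups were apart, with a log2 fold change of 0.78 ± 0.40 that did not pass (adjusted p = 0.322).

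Of the 4 E2s listed here as builders of chains by which the proteasome recognizes its substrates, 3 were tested and none passed. With 0.632% of all genes tested passing, this says nothing particular about them. Ube2k (ENSMUSG00000029203), which can join such chains without a ligase, stood at 61.7, 61.3 and 65.8 RPKM in ZP3 Trim-away and at 61.5, 67.8 and 80.9 RPKM in no Trim. Its log2 fold change of -0.14 had a 95% interval from -0.46 to 0.17 (limma adjusted p = 0.608), which leaves out a change of the size seen in Ube2t. Ube2g1 stood at 58.1, 37.6 and 37.7 RPKM in ZP3 Trim-away and at 26.3, 26.3 and 45.9 RPKM in no Trim, so that 1 library in each group stood above its other two. Ube2g2, which acts with ligases of the endoplasmic reticulum, stood at 31.6 ± 4.63 RPKM in ZP3 Trim-away and 23.6 ± 5.55 RPKM in no Trim (log2 fold change 0.42 ± 0.21, adjusted p = 0.313). Ube2r2, a partner of cullin ligases, was low, at 0.33, 0.56 and 0.016 RPKM in ZP3 Trim-away and at 1.38, 0 and 0.27 RPKM in no Trim.

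The membrane-anchored E2s of the endoplasmic reticulum, which serve the disposal of misfolded proteins, were low and uneven. Ube2j1 stood at 3.89, 0.95 and 1.43 RPKM in ZP3 Trim-away and at 8.12, 0.55 and 2.89 RPKM in no Trim, with 1 high library in each group. Its log2 fold change of -0.42 ± 0.64 carried the largest SE of the tested E2 genes, and its sign turned without no Trim replicate 1 (0.215). Ube2j2 did not exceed 0.65 RPKM in any library.

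The E2s of NEDD8 and ISG15 were low. Ube2f and Ube2m carry NEDD8 to the cullins. Ube2f stood at 3.60, 5.21 and 4.03 RPKM in ZP3 Trim-away and at 0.74, 3.93 and 2.35 RPKM in no Trim (log2 fold change 0.77 ± 0.42, limma adjusted p = 0.348). Ube2m stood at 1.02, 0.54 and 1.19 RPKM in ZP3 Trim-away and at 1.39, 0 and 1.64 RPKM in no Trim, below the level needed for the test. Ube2l6, the ISG15 E2 induced by interferon, was above 0 in 1 library, with 3 reads (0.095 RPKM, ZP3 Trim-away replicate 1), which is at the limit that a count of 0 allows.

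Negative log2 fold changes were found in 6 tested genes, and none of them passed. Besides Ube2k and Ube2j1 they were Ube2l3, Ube2o, Ube2h and Ube2d2a. Ube2l3, the E2 of ligases that take ubiquitin onto a cysteine of their own, stood at 3.26, 3.09 and 3.37 RPKM in ZP3 Trim-away and at 6.55, 3.83 and 3.62 RPKM in no Trim. It was the only tested member with every ZP3 Trim-away library below every no Trim library (4.76% of the E2 genes tested, against 6.34% of all genes), the gap from 3.37 to 3.62 RPKM was narrow, and its log2 fold change was -0.38 ± 0.30 (limma adjusted p = 0.526). Of its 72-base words 31.5% were shared with other genes, mostly with Ydjc, which overlaps it on the other strand. Ube2o, a large enzyme that joins E2 and E3 functions, stood at 1.68, 1.39 and 1.55 RPKM in ZP3 Trim-away and at 3.98, 3.53 and 1.25 RPKM in no Trim, so that 1 control lay below the ZP3 Trim-away libraries. Ube2h, the partner of the CTLH ligase, stood at 17.7, 16.1 and 14.4 RPKM in ZP3 Trim-away and at 27.3, 12.8 and 16.5 RPKM in no Trim, and the negative sign of its log2 fold change of -0.16 rested on no Trim replicate 1, without which it was 0.13. Gm26526, an annotated gene on another chromosome, held 37.3% of the 72-base words of Ube2h, so its values are uncertain.

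**Figure D3:**
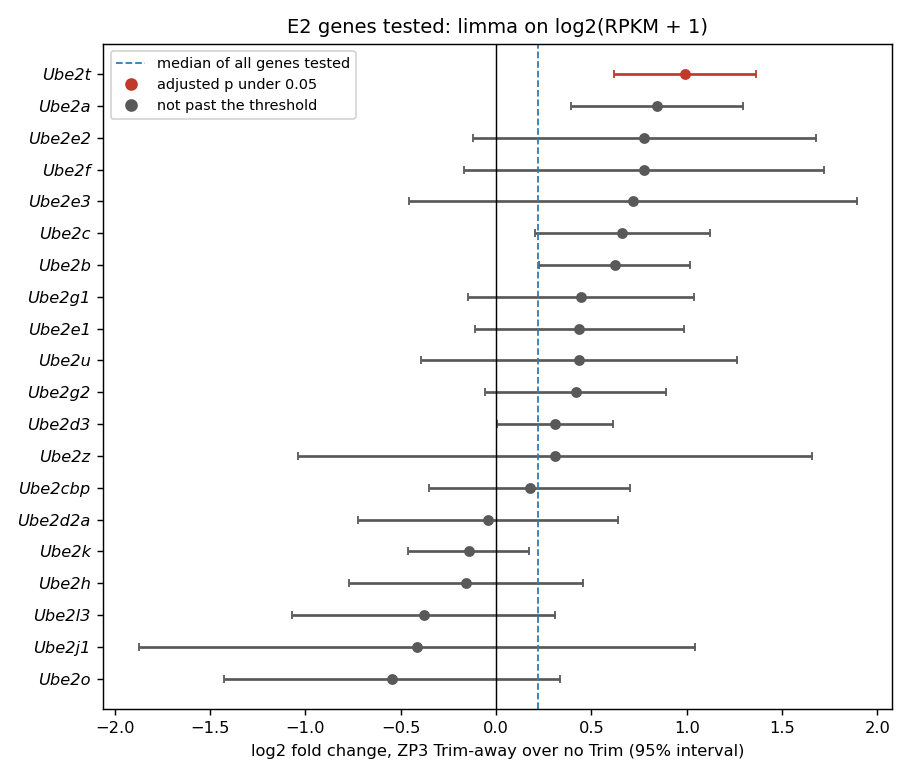
Log2 fold change of 20 tested E2 genes, ZP3 Trim-away over no Trim, with the 95% interval from limma; the solid line marks 0 and the dashed line the median of all 9965 genes tested, 0.22. Ube2t is the gene past an adjusted p of 0.05, and 14 of the 20 genes drawn lie above 0.

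Ube2u stood at 6.23 ± 1.06 RPKM in ZP3 Trim-away and 4.67 ± 2.24 RPKM in no Trim, and the groups overlapped. Ube2z, which takes ubiquitin from UBA6, was even in ZP3 Trim-away, at 1.67, 2.42 and 2.24 RPKM, and ranged in no Trim over 0.014, 4.99 and 1.57 RPKM, or 1, 399 and 109 reads. Ube2q2 was too low for the test, at 1.02, 0.92 and 0.32 RPKM in ZP3 Trim-away against 0.15, 0.16 and 0.027 RPKM in no Trim, with no overlap between the groups. It rested on 69, 62 and 21 reads in ZP3 Trim-away and on 12, 14 and 2 reads in no Trim. Ube2q1 was at 0.17, 0 and 0.26 RPKM in ZP3 Trim-away and at 0 in every no Trim library. Together with Ube2d2b and Ube2l6 it was 1 of 3 E2 genes with no read in any control. Over the whole table, more genes were above 0 in ZP3 Trim-away (18794 to 20316) than in no Trim (13202 to 14501). The share of all genes at 0 in every control was not counted, nor was the share of untested genes without overlap. Nothing particular to these E2 genes can therefore be read from either.

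Across the family, the groups did not overlap in 6 of the 21 tested genes with ZP3 Trim-away higher (28.6%, against 20.3% of all genes tested) and in 1 with it lower. One of the 6, Ube2e2, reached the level for the test only through ZP3 Trim-away, so its separation adds nothing to the count, and the other 5 averaged over 10 RPKM. Positive log2 fold changes were found in 15 of the 21 (71.4%, against 67.3% of all genes). The median log2 fold change of the tested E2 genes was 0.42, beside 0.22 for all genes tested, and this difference of 0.20 lay between 0.068 and 0.277 in the other settings. With the trend between fold change and exon length removed it was 0.089. The members' median exon length was 4579 bases, beside 3626 for all genes tested, and longer genes had lower log2 fold changes over 9858 genes (Spearman's rho = -0.30, a description over genes that share libraries). Taken alone, these median lengths point to a rise of the difference, not a fall, when the trend is removed. The cause of the fall to 0.089 was not tested. The number of calls over all genes moved with the processing. With the exon length trend removed, 36 genes were called, 13 higher and 23 lower, against 59 higher and 4 lower as reported. No E2 gene was among the genes called with a pseudocount of 0.1 (0.191% of all genes), without a filter (0.0%), with median ratio scaling (0.12%), quantile normalization (0.241%), Trim21 reads left out (0.191%) or the length trend removed (0.365%), nor without no Trim replicate 3 (1.24%) or any of the ZP3 Trim-away libraries (0.0%). Without no Trim replicate 1, Ube2t alone was called (1.61% of all genes). Without no Trim replicate 2, 4 of 22 E2 genes were called, Ube2t, Ube2a, Ube2b and Ube2c, all higher (3.0% of all genes). Among genes averaging 10 RPKM or more, 2 of 11 E2 genes were called, Ube2a and Ube2t (10.6% of all genes). With the control columns as deposited, in which replicates share values, 14 of 22 E2 genes passed, 10 higher and 4 lower, as did 37.3% of all genes. The control libraries varied more: the median SD of a tested E2 gene on the log2(RPKM + 1) scale was 0.14 in ZP3 Trim-away and 0.38 in no Trim, beside 0.20 and 0.44 for all genes. The summed level of the 30 genes was 569, 582 and 578 RPKM in ZP3 Trim-away and 404.5, 446 and 464 RPKM in no Trim, and the 5 most abundant members made up 58.0% to 61.5% of it in ZP3 Trim-away and 52.7% to 60.8% in no Trim.

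Levels are per length of all annotated exons of a gene, taken over all of its transcripts. For Ube2t that length is 4836 bases, while its principal transcript has 1116, and for Ube2d3 it is 24499 bases, while the transcript has 1512. The RPKM of such genes therefore stands below what the same reads would give on the messenger alone. The order of genes by RPKM depends on the exon length, whereas the ratio of RPKM of 1 gene between groups does not. The level of 1 RPKM needed for the test and the log2(RPKM + 1) scale do depend on it. Ube2s, for example, has 5141 bases of exon and a principal transcript of 1238, and its mean of 0.96 RPKM left it untested.

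The remaining machinery of the cascade was read from a list of 33 genes, of which 32 were in the table and 22 were tested. None was called by limma over all genes (0 higher and 0 lower), and 9 of the 22 had an unadjusted p under 0.05, against 19.5% of all genes tested. Of these 9, 7 had a positive log2 fold change. Over all genes tested 67.3% were positive, and 59 of the 63 genes called were higher in ZP3 Trim-away. The share of positive changes among all genes with an unadjusted p under 0.05 was not counted, so nothing particular to this list can be read from it. Among the E1 enzymes, Uba1, the main activator of ubiquitin, stood at 50.7, 47.5 and 60.5 RPKM in ZP3 Trim-away and at 82.3, 87.1 and 69.3 RPKM in no Trim, without overlap (log2 fold change -0.58 ± 0.15, limma adjusted p = 0.0895). Uba6 stood at 4.24 ± 0.76 RPKM in ZP3 Trim-away and 5.47 ± 2.52 RPKM in no Trim, and Uba3, of the NEDD8 E1, at 37.2 ± 4.24 RPKM in ZP3 Trim-away and 41.2 ± 4.66 RPKM in no Trim. Of the modifiers, Ubb, a polyubiquitin gene, stood at 350.2, 494 and 504 RPKM in ZP3 Trim-away and at 316, 323 and 266 RPKM in no Trim (0.56 ± 0.15, adjusted p = 0.104). Nedd8 stood at 55.5 ± 6.68 RPKM in ZP3 Trim-away and 36.9 ± 8.60 RPKM in no Trim. Outside the Ube2 names, Tsg101, which has an E2 fold without the catalytic cysteine, stood at 38.5 ± 5.11 RPKM in ZP3 Trim-away and 22.4 ± 3.22 RPKM in no Trim (0.76 ± 0.17, adjusted p = 0.0704), and Cdc34b, an E2 of cullin ligases, at 2.07 ± 0.46 RPKM in ZP3 Trim-away and 5.28 ± 0.72 RPKM in no Trim (-1.04 ± 0.29, adjusted p = 0.106).

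**Figure D4:**
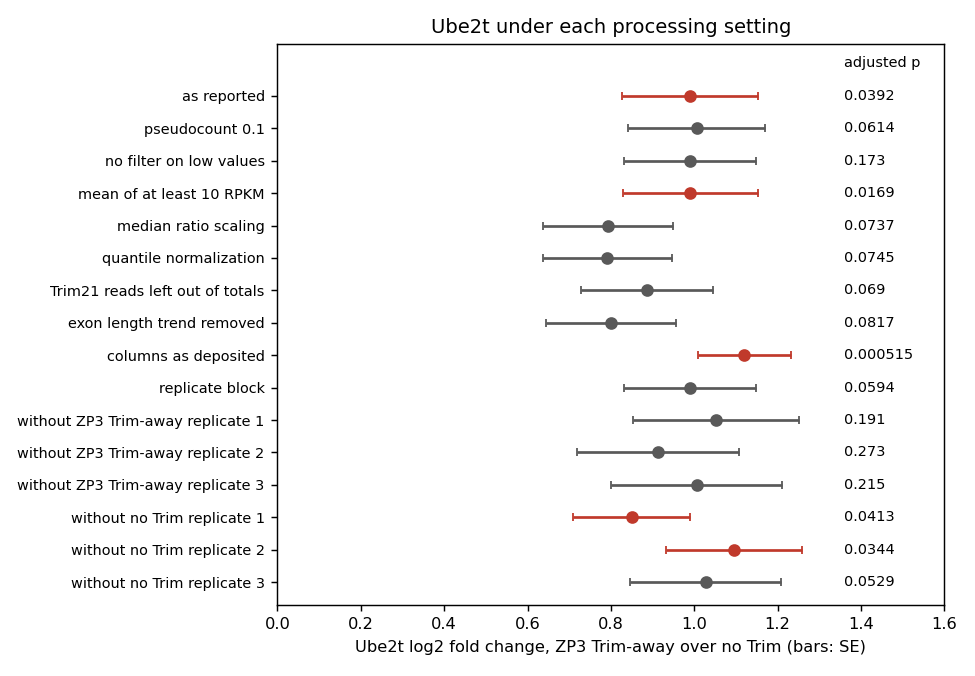
Log2 fold change of Ube2t, ZP3 Trim-away over no Trim, with its SE (bars) as reported and in each of 15 other settings, and the limma adjusted p of each at the right; red marks an adjusted p under 0.05. The value stays between 0.79 and 1.12, while the adjusted p lies on either side of the threshold. The highest value and the lowest adjusted p are those of the columns as deposited, in which control replicates share values.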

How the data were processed

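The authors deposited 1 table of RPKM values for 25731 genes in 6 libraries. According to the sources, 72-base reads went through FastQC 0.11.9, Trimmomatic, HISAT2, SAMtools and htseq-count. Other versions were not stated. GRCm39 is named in the labels, GRCm38 in the methods, and strand was not stated in the counting. The deposited columns of no Trim replicates 2 and 3 were never below 0.5 times replicate 1 in 13202 genes and lay exactly at that ratio in 2059 and 2090 genes. They were taken as means with replicate 1 and separated as 2 times the column minus replicate 1, and no value came out negative (0 genes). RPKM multiplied by GENCODE M21 exon length and the library total gave values within 0.01 of a whole read for 94.9% to 96.0% of genes above 0, and for 29 of the 30 members. Ube2a was the exception, and no reads are given for it. At 1 kb of exon, 3 reads, the limit that a count of 0 allows, equal 0.15 to 0.196 RPKM. Reads carry no molecular identifiers, so this limit covers counting error only.

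The test used limma 3.58.1 (R 4.3.3) on log2(RPKM + 1), a scale that understates the change of low genes, with a trended prior. It covered the 9965 genes averaging 1 RPKM or more, with Benjamini-Hochberg adjustment at 0.05. The fit was also run on simulated data in which both groups had the same spread. That run cannot check the unequal spread of these libraries (median SD of all genes 0.202 in ZP3 Trim-away and 0.436 in no Trim). The series text calls the pools biological replicates and does not say whether they were collected separately, so the spread behind the p-values may be technical. Alternatives were a pseudocount of 0.1, no filter or a mean of 10 RPKM, 3 other scalings (median ratio, quantile, Trim21 reads left out), removal of the exon length trend, the columns as deposited, a replicate block and each library left out. Values in every library are given for members past the threshold, members averaging 50 RPKM or more, the 6 highest and 6 lowest log2 fold changes, and members chosen by role. Values of 1 member are not reported here, and of the list of 33 only those of 7 genes are given. All stay in the counts and medians. Ube2z, Ube2q1, Ube2q2, Ube2r2 and the genes named from the list of 33 were chosen after their values were seen. Ube2e1 and Ube2g1 are also given in every library, although none of the rules set beforehand named them. The members and lists were chosen with earlier results of these data known. Words of 72 bases were compared with all GENCODE M21 transcripts on both strands. Python 3.11.15, pandas 2.3.3, numpy 2.4.6 and matplotlib 3.10.9 were used.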

Additional observations from a re-analysis of the deposited data

How the results depend on the processing

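The number of E2 genes called was 0 with a pseudocount of 0.1, no filter, median ratio scaling, quantile normalization, totals without Trim21, the exon length trend removed and the replicate block (3 to 6 with an unadjusted p under 0.05). It was 2 when genes averaging 10 RPKM or more were tested and 14 with the columns as deposited. Leaving out 1 library gave 0 to 4. The 4 were of 22 tested without no Trim replicate 2, where 3.0% of all genes passed. Over all genes, 63 were called (59 higher, 4 lower) and 19, 0, 12, 24, 19, 36 and 0 in the first 7 settings (17, 0, 9, 18, 16, 13 and 0 of them higher; 3323 genes had an unadjusted p under 0.05 without a filter and 1733 under the block). They were 368 at 10 RPKM, 3707 as deposited and 0 to 300 without 1 library. The replicate numbers did not pair the pools, since deviations from the group means correlated by -0.061, 0.019 and -0.053 for the same number. Under the block, the log2 fold change of Ube2t was 0.99 (adjusted p = 0.0594) and the E2 median relative to all genes 0.20. That median was 0.20 as reported, 0.277 with quantile normalization, 0.089 with the length trend removed and 0.122 as deposited, and 0.068 to 0.173 without 1 library. The median of all genes itself ran from -0.021 to 0.309.

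Of 288 values for 20 single E2 genes, 249 kept their direction and side of the threshold, and 14 of the 20 kept their direction in every setting that tested them. The sign turned for Ube2cbp with median ratio scaling (-0.01) and the length trend removed (-0.25; -0.022 to 0.28 without 1 library), for Ube2u with the length trend removed (-0.013) and for Ube2z with quantile normalization (-0.124; -0.343 to 0.938 without 1 library). Without 1 library, Ube2j1 ran from -1.062 to 0.215, Ube2h from -0.388 to 0.129 and Ube2d2a from -0.237 to 0.092. The cause was not tested. The columns as deposited count replicate 1 in all 3 controls, which narrows their spread by construction.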

Other observations

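Rows whose symbol starts with Ube2 but whose class is not protein-coding fell outside the rule. Ube2n-ps1, listed as a processed pseudogene, stood at 26.4, 29.6 and 22.7 RPKM in ZP3 Trim-away and at 19.4, 29.2 and 12.8 RPKM in no Trim, above most protein-coding members. Ube2d-ps, listed as a long noncoding RNA, stood at 0.87, 0.88 and 1.08 RPKM in ZP3 Trim-away and at 3.99, 0.12 and 2.37 RPKM in no Trim. Ube2uos, Ube2nl and Ube2d4 did not exceed 1.15 RPKM in any library.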
